A study of Mus musculus with 6 samples.

Results

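Open chromatin was described at 43 genes for histone and chromatin modifying enzymes, of 21883 protein-coding genes, in blood monocytes of thrombocytopenic and control mice. The genes were chosen by name and by enzyme class. No measured value entered that rule, but earlier results of these data were known when it was set. They comprise 19 methyltransferase genes (2 of them, Eed and Suz12, for obligate partner subunits of a methyltransferase), 6 demethylases, 8 acetyltransferases, 9 deacetylases and the acetyl-lysine reader Brd2. Peaks were read over each gene body of the mouse assembly GRCm38 with 10 kb on each side, a stretch called the gene window below. Accessible DNA was measured by ATAC-seq, which uses a transposase to cut and tag open chromatin. The DTR group holds 3 libraries from PF4cre-iDTR mice, in which a Cre recombinase under the platelet factor promoter switches on a diphtheria toxin receptor in the megakaryocyte lineage. The WT group holds 3 libraries from wild-type mice. Both groups received diphtheria toxin, so that the toxin itself is common to both and the genotype, with the loss of platelets, differs. Age, sex and whether a library came from 1 animal or a pool are not given in the labels used here, and p-values below therefore measure only the spread between these libraries.

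Histone methyltransferases and acetyltransferases place chemical groups on histone tails, demethylases and deacetylases take them off, and readers such as the BET protein Brd2 bind the acetylated tails. Methylation of H3K4 by the Kmt2 and Setd1 enzymes is found at promoters and enhancers, and methylation of H3K27 by Ezh1 and Ezh2, and of H3K9 by Setdb1, Ehmt1 and Ehmt2, accompanies silencing. In monocytes and macrophages several of these enzymes are known for a part in inflammatory gene control, among them the H3K27 demethylase Kdm6b, the acetyltransferases Ep300 and Crebbp, and the class IIa deacetylases. An ATAC-seq peak at such a gene shows accessible DNA there and does not measure the enzyme's level or activity.

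The deposited lists held 84029, 81567 and 81579 peaks in the DTR libraries and 78162, 77867 and 80475 in the WT libraries. Peaks covered 48.1 to 50.1 Mb of the genome in DTR libraries and 43.8 to 47.7 Mb in WT libraries. Read counts are not part of the lists, so the depth is unknown, and the lists cannot separate closed chromatin from shallow sequencing. Monocyte markers were open: of the marker genes with an annotated start, 7 of 7 of classical and 9 of 9 of non-classical monocytes had a peak at the start in all 6 libraries. The same held for 5 of 10 neutrophil, 4 of 9 T and NK cell, 2 of 6 B cell, 3 of 8 megakaryocyte and platelet and 2 of 7 erythroid markers. The part of other cells in the values below was not tested.

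Nearly every one of these genes was open at its start. Of the 33 members with an annotated start, 32 had a peak within 1 kb of it in all 6 libraries, against 59.2% of 17491 protein-coding genes. The other 10 members, Kmt2b, Setd1b, Smyd3, Nsd1, Nsd2, Kdm5a, Kdm6b, Kat6a, Hdac1 and Hdac3, have no start in the promoter table used, and each had a peak within 1 kb of an end of the gene in all 6 libraries. The exception was Hdac9, a class IIa deacetylase that works as a transcriptional corepressor, which had no peak at either of its 2 annotated starts in any library. Peaks at members' starts were wider, and ranked slightly lower, than those of all genes. Their median width was 1198 bp over members, against 990 bp over all genes with a start peak in all 6 libraries. Their authors' fold enrichment ranked at a median percentile of 69.2 within each library's own list. Over all genes with a start peak in any library this was 72.4, a missing peak being ranked lowest. All fold enrichments below are the authors' own and serve only to describe and rank peaks within a list.

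The 3 highest-ranked start peaks belonged to Setdb1, an H3K9 methyltransferase, with a median fold of 12.7 over the 6 libraries, to Kdm4a, a demethylase of H3K9 and H3K36, with 11.4, and to Kat8, an acetyltransferase of the MYST family, with 10.8. These peaks were narrow, at 434, 841 and 639 bp. The promoters under them are shown because these openings ranked highest among the members. They are RefSeq sequences of GRCm38.p6 from 250 bases before to 50 bases after the annotated start, printed 5′ to 3′ on the gene's own strand. Setdb1 lies at chr3:95357153-95357452 on the minus strand, Kdm4a at chr4:118179994-118180293 on the minus strand and Kat8 at chr7:127912267-127912566 on the plus strand. Capitals mark exact matches on either strand to 3 motifs. The GC box was searched as GGGCGG. The ETS motif was searched as CCGGAAGT, and the CCAAT box by the letters of its name.
Setdb1: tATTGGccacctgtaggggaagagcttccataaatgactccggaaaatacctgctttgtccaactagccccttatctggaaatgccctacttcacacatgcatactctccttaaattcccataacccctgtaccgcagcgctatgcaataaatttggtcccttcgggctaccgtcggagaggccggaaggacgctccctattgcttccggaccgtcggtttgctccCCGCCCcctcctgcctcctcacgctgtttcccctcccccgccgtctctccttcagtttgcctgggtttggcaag
Kdm4a: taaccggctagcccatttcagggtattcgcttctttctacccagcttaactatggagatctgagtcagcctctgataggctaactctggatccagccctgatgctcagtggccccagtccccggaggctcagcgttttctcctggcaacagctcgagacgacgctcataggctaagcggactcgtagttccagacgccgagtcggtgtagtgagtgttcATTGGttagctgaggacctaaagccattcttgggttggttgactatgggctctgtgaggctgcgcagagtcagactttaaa
Kat8: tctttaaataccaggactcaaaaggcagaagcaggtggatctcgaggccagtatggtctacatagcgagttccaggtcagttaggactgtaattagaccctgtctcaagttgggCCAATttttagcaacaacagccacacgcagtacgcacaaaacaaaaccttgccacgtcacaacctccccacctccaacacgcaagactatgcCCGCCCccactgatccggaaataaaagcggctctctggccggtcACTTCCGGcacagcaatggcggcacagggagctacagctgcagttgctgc
The Setdb1 promoter held 1 GC box and 1 CCAAT box, the Kdm4a promoter 1 CCAAT box, and the Kat8 promoter 1 of each of the 3 motifs. They held 15, 13 and 12 CpG dinucleotides, below the median of 28 over the 33 members with a promoter entry.

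The 3 lowest-ranked start peaks belonged to Kdm5b, an H3K4 demethylase, with a median fold of 2.97, to Brd2 with 3.08 and to Kat2a, the GCN5 acetyltransferase, with 4.13. Low fold had different shapes at these genes. The Kdm5b peak was 649 bp wide, and the gene's strongest region lay 2812 bp from the start at chr1:134556362-134557366 with a median fold of 6.19. The Brd2 start peak was the widest of the 32, at 3981 bp. That of Kat2a was 503 bp wide. Their promoters are shown with the same capitals for contrast with the 3 above: Kdm5b at chr1:134559928-134560227 on the plus strand, Brd2 at chr17:34119851-34120150 on the minus strand and Kat2a at chr11:100712418-100712717 on the minus strand.
Kdm5b: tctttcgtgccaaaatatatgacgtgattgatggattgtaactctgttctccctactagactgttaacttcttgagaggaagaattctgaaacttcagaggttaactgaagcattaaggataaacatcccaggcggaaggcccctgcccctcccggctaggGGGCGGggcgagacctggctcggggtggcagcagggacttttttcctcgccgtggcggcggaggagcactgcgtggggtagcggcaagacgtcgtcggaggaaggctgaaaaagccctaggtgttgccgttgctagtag
Brd2: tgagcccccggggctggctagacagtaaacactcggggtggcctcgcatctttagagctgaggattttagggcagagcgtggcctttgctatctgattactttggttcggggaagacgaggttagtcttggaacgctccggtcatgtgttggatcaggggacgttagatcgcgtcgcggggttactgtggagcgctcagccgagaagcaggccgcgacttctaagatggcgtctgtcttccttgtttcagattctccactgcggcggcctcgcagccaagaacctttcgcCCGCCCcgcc
Kat2a: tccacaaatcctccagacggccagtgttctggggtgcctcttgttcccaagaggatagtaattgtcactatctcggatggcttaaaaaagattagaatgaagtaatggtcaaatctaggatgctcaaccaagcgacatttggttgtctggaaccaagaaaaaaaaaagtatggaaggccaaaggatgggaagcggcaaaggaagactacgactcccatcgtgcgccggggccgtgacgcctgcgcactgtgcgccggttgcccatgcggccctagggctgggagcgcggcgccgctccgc
The Kdm5b and Brd2 promoters held 1 GC box each, and the Kat2a promoter held no match to any motif searched. Their CpG numbers were 17, 24 and 19.

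**Figure D1:**
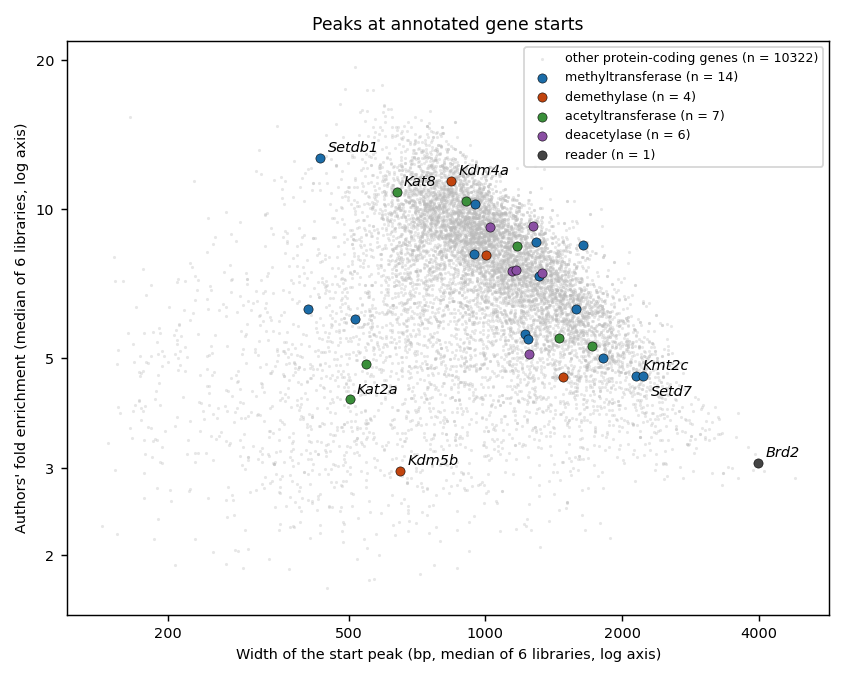
Width (x axis, bp, log axis) and the authors' fold enrichment (y axis, log axis) of the peak at the annotated start, each the median of 6 libraries, for 32 members coloured by enzyme class and for other protein-coding genes in grey. Setdb1, Kdm4a and Kat8 stand at the top with folds of 12.7, 11.4 and 10.8, and Brd2 at the far right with 3981 bp.

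Of the promoters printed here, those of Hdac9 and Hdac7 held the fewest and the most CpG. The Hdac9 promoter at chr12:34917046-34917345, minus strand, had no peak in any library, held 0 CpG and was 44.0% GC. The Hdac7 promoter at chr15:97831446-97831745, minus strand, held 31 CpG and was 73.7% GC, and it is shown because this gene held the only member region called in all 3 WT libraries and in none of the DTR libraries. Hdac7 encodes another class IIa deacetylase.
Hdac9: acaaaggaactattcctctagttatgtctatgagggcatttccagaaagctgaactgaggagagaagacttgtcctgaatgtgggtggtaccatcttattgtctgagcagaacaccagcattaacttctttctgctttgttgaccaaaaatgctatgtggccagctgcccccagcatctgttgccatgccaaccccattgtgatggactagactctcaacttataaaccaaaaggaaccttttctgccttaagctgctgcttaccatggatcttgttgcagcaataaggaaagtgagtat
Hdac7: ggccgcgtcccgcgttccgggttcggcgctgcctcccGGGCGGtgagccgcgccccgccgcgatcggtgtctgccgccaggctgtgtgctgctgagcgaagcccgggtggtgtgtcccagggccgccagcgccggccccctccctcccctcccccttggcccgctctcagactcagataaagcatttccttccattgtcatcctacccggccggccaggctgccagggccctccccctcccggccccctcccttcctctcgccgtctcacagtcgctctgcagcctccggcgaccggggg
Over the 33 members with an entry the median promoter held 28 CpG and was 62.7% GC, against 13 CpG and 56.3% GC over 17491 promoters, and 21 CpG and 61.0% GC over those with a start peak in all 6 libraries. A GC box occurred in 20 of 33 member promoters, or 60.6%, against 46.6% of all, and a CCAAT box in 13, or 39.4%, against 39.0%. The ETS motif occurred in 4 members, or 12.1%, against 5.33% of all. These were Sirt6, a sirtuin deacetylase, and the MYST acetyltransferases Kat5, Kat7 and Kat8. The other MYST gene, Kat6a, has no promoter entry and was not searched. The NRF1 motif was found at Sirt6 alone, against 1.33% of all promoters, the PU.1 motif (GAGGAAGT) at Kat2b alone, against 3.18%, and a CRE (TGACGTCA) at no member, against 2.32%. A match is a description of letters in this window and not a bound site. A peak lay over the promoter bases themselves in all 6 libraries at 32 of 33 members, against 55.8% of all promoters.

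Overlapping or touching peaks of the 6 lists were joined into merged regions, and the members' windows held 377 of 92757 of them in the genome, each in the window of 1 member. Most were common to all libraries: 289 of 377, or 76.7%, against 74.1% of all regions. Those of 1 library alone numbered 31, or 8.22%, against 8.11%. Regions of all 6 libraries had a median width of 691 bp, and those of 1 library 196 bp. Among the 57 regions seen in 2 to 5 libraries, 32 had a peak in more DTR than WT libraries, or 56.1%, against 56.3% of the 16521 such regions of the genome. A further 12, or 21.1%, had a peak in more WT than DTR libraries, against 19.4%, and 13 in equal numbers.

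The share of regions common to all libraries varied by class. Demethylase genes had 37 of 41 regions in all 6 libraries, methyltransferases 117 of 151, acetyltransferases 49 of 64, deacetylases 79 of 110 and Brd2 7 of 11. The H3K27 methyltransferase genes held few regions. Ezh1, Ezh2, Eed and Suz12 together held 12 regions, 11 of them in all 6 libraries, and Eed had a single region, over its start. At the other end by number, Hdac9 held 42 regions in a gene body of 869.5 kb, the longest of the 43. Smyd3, a SMYD family methyltransferase, held 32 in 566 kb, and Hdac4 held 26 in 267 kb. Per 100 kb of window Hdac9 held 4.72, Smyd3 5.46 and Hdac4 9.06 regions. Ezh1 held 7.23, Ezh2 5.88, Eed 2.16 and Suz12 3.28, and Brd2 held 35.7. Peaks covered a median of 5.42% of the members' windows, against 5.35% over the 16319 genes with enough covered length for the test below. Kdm6b at 23.3% and Brd2 at 21.2% were the most open windows, at percentiles of 99.9 and 99.6 among those genes, and Kdm1a, the LSD1 demethylase, was the least open at 2.06%. A window is not the enzyme gene alone: 35 of the 43 held at least part of another protein-coding gene, such as Lck and Marcksl1 beside Hdac1, H2-DMa beside Brd2, and Vdr and Slc48a1 beside Hdac7.

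**Figure D2:**
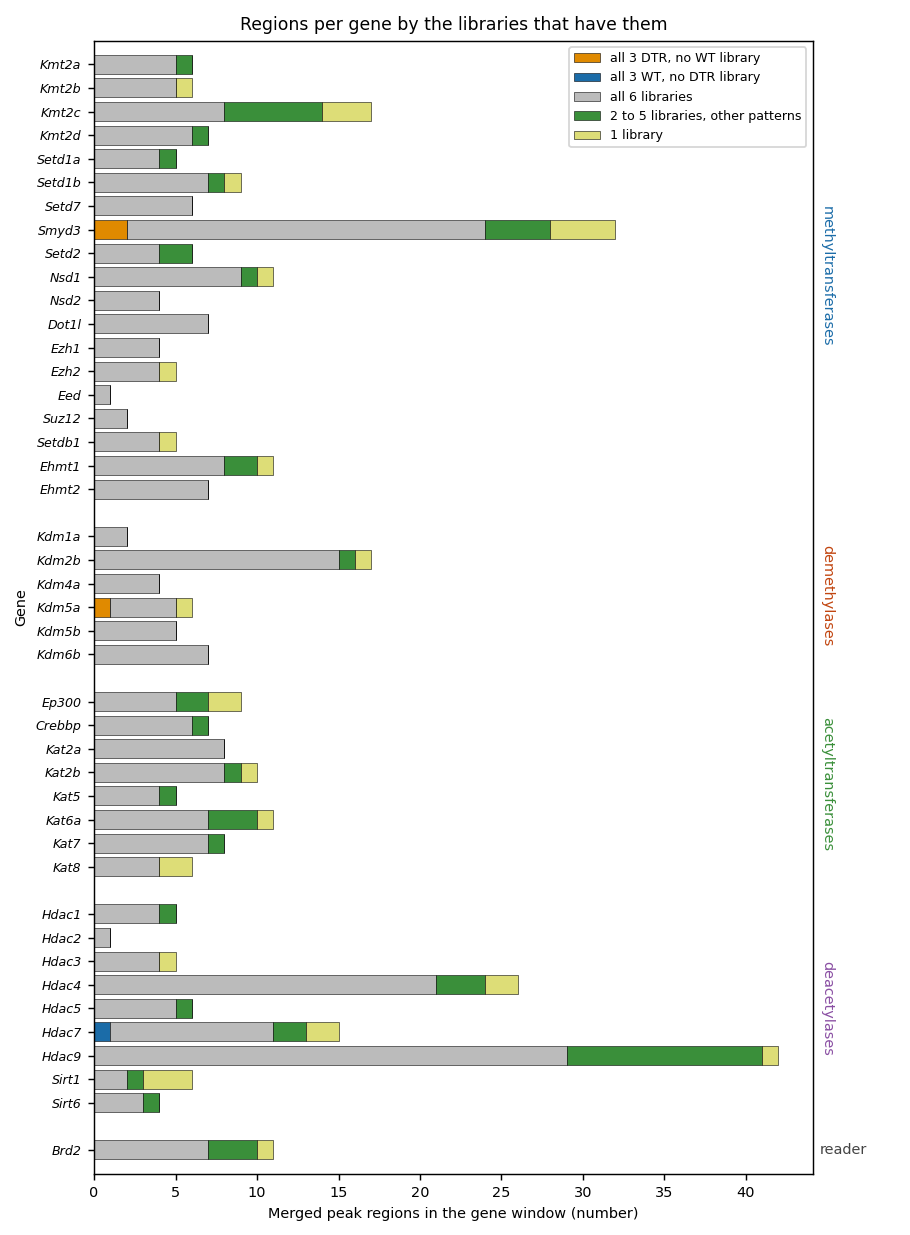
Number of merged peak regions in each gene's window (x axis), stacked by the libraries that have them. Grey, the regions of all 6 libraries, makes up 289 of the 377 regions. Regions called in the 3 DTR libraries alone (orange) stand at Smyd3 and Kdm5a, and that called in the 3 WT libraries alone (blue) at Hdac7.

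The strongest region of a gene was often not its start. The highest fold at any of the 43 genes was at Kmt2c, an H3K4 methyltransferase of enhancers, 62437 bp from the start inside the gene body at chr5:25436055-25436346, with a median of 16.7. Its folds were 18.9, 16.0 and 13.9 in DTR libraries, and 14.9, 19.7 and 17.4 in WT libraries. At Hdac9 the strongest region, chr12:34847371-34848207, lay 68888 bp from a start with a median fold of 11.1, and the region nearest to a start was 8.89 kb away. At Hdac4 it lay 195400 bp from the start inside the gene, at chr1:91984463-91984941, with a fold of 11.5.

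The comparison of the groups asks whether monocytes of thrombocytopenic mice differ from those of controls in how much of each gene's window is open. No member passed the test. Covered length, the number of bases of a window under a library's peaks, was compared as log2(bp + 100) with limma over all 16319 genes that averaged at least 200 bp, and all 43 members passed that filter. With Benjamini-Hochberg adjustment 0 of 43 members were called, at a lowest adjusted p of 0.151 for Smyd3, against 6 genes or 0.0368% of all tested, 5 of them higher (0.0306%) and 1 lower (0.00613%). At an unadjusted p under 0.05 there were 10 members with higher values in DTR libraries, or 23.3%, against 12.4% of all genes, and 0 with lower values, against 0.38%. The 10 were Kmt2d, Smyd3, Setd2, Setdb1, Kdm5a, Kat2b, Kat5, Kat6a, Kat7 and Hdac4. This count depended on the setting. After scaling by each library's total covered length it was 1 higher and 2 lower, or 2.33% and 4.65%, against 4.14% and 4.66% of all genes. With only peaks of −log10 q of at least 5 it was 5 higher, or 11.6%, against 13%, and in the gene body alone 6, or 13.95%, against 10.1%. Without DTR 3 it was 3, or 6.98%, against 8.22%, and without WT 2 it was 5 higher and 2 lower, or 11.6% and 4.65%, against 7.93% and 0.918%. Without WT 3 it was 6 higher and 1 lower, or 13.95% and 2.33%, against 10.3% and 0.331% of all genes. With lists of equal length it was 7 higher, or 16.3%, against 9.04%, and without DTR 1 it was 7, or 16.3%, against 8.86%. With no filter on covered length it was 9, or 20.9%, against 9.30%. With replicate number as a block it was 5, or 11.6%, against 13.5%.

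The shift towards longer covered lengths was shared with the rest of the genome. The median difference over members was 0.088 (log2, DTR minus WT), against 0.070 over all genes tested, and it was positive at 36 of 43 members, or 83.7%, against 82.8% of all genes. By class this share was 89.5% of methyltransferases, 83.3% of demethylases, 87.5% of acetyltransferases and 77.8% of deacetylases. DTR libraries had more covered length in all, and dividing by each library's total moved the median of all genes by −0.10. On that scale the members' median was −0.016, against −0.030 over all genes, and 17 of 43 differences were positive. Summed over the 43 genes, the members' windows held 228, 223 and 231 kb in DTR libraries, and 217, 207 and 214 kb in WT libraries. As a share of each library's covered length this was 0.455%, 0.463% and 0.460% in DTR libraries, and 0.456%, 0.472% and 0.460% in WT libraries. The sums did not overlap between groups and the shares did.

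At 14 members, or 32.6%, all 3 DTR libraries had a longer covered length than all 3 WT libraries, against 19.6% of all genes, and at 1 member, Brd2, or 2.33%, all were shorter, against 0.852%. Members were larger than the genes they are set beside, with a median gene body of 42.4 kb against 21.3 kb. Their median covered length was 4096 bp against 2442 bp. The part of size in these and the other shares per gene was not tested. After scaling by total covered length the counts were 2 above and 4 below, against 5.02% and 15.1% of all genes. The 2 were Smyd3 and Kat7, an acetyltransferase, and the 4 were Nsd1, Dot1l, Kdm1a and Brd2. An exact two-sided permutation test of 3 against 3 libraries cannot give a p below 0.1, so a gap of this kind at 1 gene cannot reach 0.05 by itself.

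**Figure D3:**
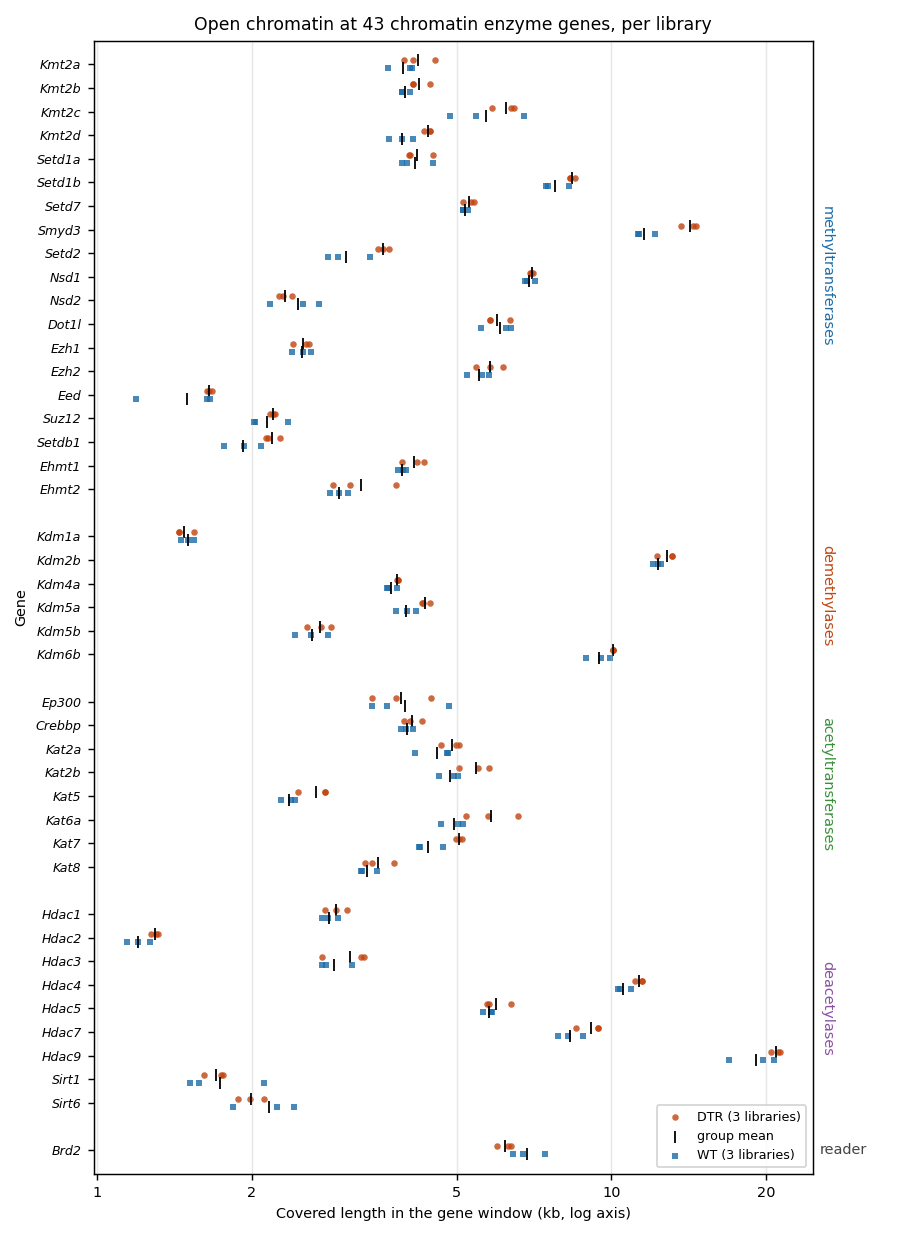
Covered length in each gene's window (x axis, kb, log axis) in 3 DTR (orange circles) and 3 WT libraries (blue squares), with a black bar at each group's mean, by enzyme class. Smyd3 shows the widest gap, at 13642 to 14626 bp in DTR libraries and 11288 to 12176 bp in WT libraries, and Brd2 lies at 5996 to 6367 bp in DTR libraries and 6446 to 7419 bp in WT libraries.

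Among the methyltransferases, 0 of 19 passed the test, 17 had a positive difference as deposited, and the median difference was 0.090. Their windows together held 91.9, 89.7 and 93.9 kb in DTR libraries, and 85.9, 84.8 and 84.8 kb in WT libraries. Smyd3 covered 14626, 13642 and 14430 bp in DTR libraries, and 12176, 11306 and 11288 bp in WT libraries. Every DTR value lay above every WT value, as deposited and after scaling. The difference was 0.29 ± 0.047 (log2, SE, adjusted p = 0.151), or 0.19 after scaling (adjusted p = 0.297). Setd2, the enzyme that trimethylates H3K36, covered 3601, 3515 and 3697 bp in DTR libraries, and 2941, 3391 and 2817 bp in WT libraries. These values did not overlap either, at 0.24 ± 0.074 (adjusted p = 0.304). With lists of equal length the groups overlapped and the difference was 0.045 (adjusted p = 0.834). It was 0.14 after scaling and 0.12 at a −log10 q of at least 5. The gap at Setd2 was outside the gene: in the gene body alone the values were 731, 735 and 731 bp in DTR libraries, and 735, 731 and 743 bp in WT libraries, a difference of −0.0069, while the flanks averaged 2872 bp in DTR and 2313 bp in WT libraries. One such flanking region, at chr9:110622800-110623299, had a peak in all 3 DTR libraries and in WT 2. Kif9, Nradd and Nbeal2 also reach into this window.

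The other H3K4 enzymes had smaller differences. Kmt2d, the enhancer methyltransferase related to Kmt2c, covered 4315, 4434 and 4447 bp in DTR libraries, and 3915, 4117 and 3696 bp in WT libraries, with no overlap and 0.17 ± 0.049 (adjusted p = 0.288). Kmt2b and Setd1b also had no overlap as deposited, at 0.090 and 0.11, whereas Kmt2a, Kmt2c, Setd1a and Setd7 overlapped. The H3K27 group overlapped at all 4 genes, with differences of 0.0033 at Ezh1, 0.065 at Ezh2, 0.15 at Eed and 0.041 at Suz12. Eed, the scaffold subunit that binds trimethylated H3K27, covered 1648, 1672 and 1634 bp in DTR libraries, and 1190, 1656 and 1632 bp in WT libraries, with WT 1 alone below the rest. Of the H3K9 enzymes, Setdb1 covered 2153, 2267 and 2130 bp in DTR libraries, and 2080, 1761 and 1930 bp in WT libraries (0.18 ± 0.067, adjusted p = 0.368), with no overlap. Ehmt1 and Ehmt2 overlapped. The lowest difference of the class was −0.078 at the H3K36 enzyme Nsd2, and Dot1l, the H3K79 methyltransferase, stood at −0.018.

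Among the 6 demethylases 0 passed the test, 5 had a positive difference as deposited and the median was 0.055. Their windows held 35.7, 34.7 and 35.3 kb in DTR libraries, and 34.4, 32.9 and 33.6 kb in WT libraries. Kdm5a, a demethylase of H3K4, covered 4285, 4430 and 4308 bp in DTR libraries, and 4172, 4002 and 3811 bp in WT libraries, without overlap (0.12 ± 0.045, adjusted p = 0.367). In the gene body alone Kdm5a had 965, 1105 and 971 bp in DTR libraries, and 687, 638 and 687 bp in WT libraries, a difference of 0.53 (adjusted p = 0.0777). Kdm6b was almost constant within the DTR group, at 10052, 10077 and 10066 bp, and had 9538, 8944 and 9940 bp in WT libraries. Its values did not overlap as deposited, at 0.088 ± 0.045 (adjusted p = 0.460), and the sign turned to −0.016 after scaling. Kdm2b, a demethylase of H3K36, had 17 regions, 15 of them in all 6 libraries, and overlapped between groups, as did Kdm1a, Kdm4a and Kdm5b.

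The acetyltransferases had the highest class median, 0.13, with 7 of 8 differences positive as deposited and 0 of 8 past the test. Their windows held 36.2, 33.6 and 36.4 kb in DTR libraries, and 33.8, 31.5 and 32.1 kb in WT libraries, which overlapped. Kat6a, a MYST acetyltransferase, covered 6572, 5206 and 5752 bp in DTR libraries, and 4664, 5021 and 5157 bp in WT libraries (0.23 ± 0.091, adjusted p = 0.383). Kat7, a MYST enzyme linked to replication origins, covered 5046, 5133 and 4994 bp in DTR libraries, and 4714, 4253 and 4227 bp in WT libraries (0.20 ± 0.052, adjusted p = 0.252). Neither overlapped as deposited. Kat5, the catalytic subunit of the TIP60 complex, and Kat2b, or PCAF, had no overlap either, at 0.17 and 0.16. In the gene body alone Kat5 stood at 0.039 and Kat2b at 0.15. The flanks of Kat5, which Rnaseh2c also reaches, averaged 1567 bp in DTR and 1295 bp in WT libraries. Over the whole window the coactivators Ep300 and Crebbp stood at −0.017 and 0.032 and overlapped. With lists of equal length Ep300 stood at −0.21 (adjusted p = 0.638). Ep300 spread as widely within a group as between groups, with 3806, 3429 and 4462 bp in DTR libraries, and 4823, 3420 and 3657 bp in WT libraries.

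Of the 9 deacetylases, 0 passed the test and 7 had a positive difference as deposited, with a median of 0.098. Their windows held 58.4, 58.2 and 58.6 kb in DTR libraries, and 56.5, 51.4 and 55.7 kb in WT libraries. Hdac7 covered 9406, 8539 and 9437 bp in DTR libraries, and 8788, 8217 and 7888 bp in WT libraries (0.14 ± 0.060, adjusted p = 0.417), and the groups overlapped. Hdac9 covered 21272, 21091 and 20462 bp in DTR libraries, and 20736, 16927 and 19735 bp in WT libraries (0.13 ± 0.077, adjusted p = 0.495), with overlap and with WT 2 well below the rest. Hdac4, the third class IIa gene named here, covered 11096, 11472 and 11458 bp in DTR libraries, and 10405, 10282 and 10897 bp in WT libraries, with no overlap (0.11 ± 0.036, adjusted p = 0.331). Hdac2, a class I deacetylase of corepressor complexes, had 1 region, over its start, of 1311, 1273 and 1301 bp in DTR libraries, and 1199, 1142 and 1268 bp in WT libraries. The sirtuins, which need NAD as a cofactor, were the deacetylases with negative differences: Sirt1 stood at −0.014 and Sirt6 at −0.11 ± 0.10 (adjusted p = 0.662), and both overlapped.

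Brd2 was the member with the lowest difference as deposited and after scaling, where it stood at −0.24. It covered 5996, 6367 and 6290 bp in DTR libraries, and 6729, 6446 and 7419 bp in WT libraries, a difference of −0.14 ± 0.061 (adjusted p = 0.413). The groups did not overlap, but the gap to the nearest WT value was smaller than the spread within the WT group. The region over its start, chr17:34118864-34122868, covered 3293, 3943 and 3980 bp in DTR libraries, and 4003, 3982 and 3983 bp in WT libraries, so DTR 1 was the short one there. The flanks held the rest: the region at chr17:34108893-34110069 had no peak in DTR libraries and 1 each in WT 1 and WT 3, and that at chr17:34110900-34111923 in DTR 1, DTR 2 and WT 3. In the gene body alone, and with lists of equal length, the groups overlapped and the difference was −0.073 and −0.060. Other members were lower there: Hdac3 at −0.15 and Nsd2 at −0.11 in the gene body, and Ep300 at −0.21 and Sirt6 at −0.11 with lists of equal length. With only peaks of −log10 q of at least 5 the difference at Brd2 was −0.019.

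**Figure D4:**
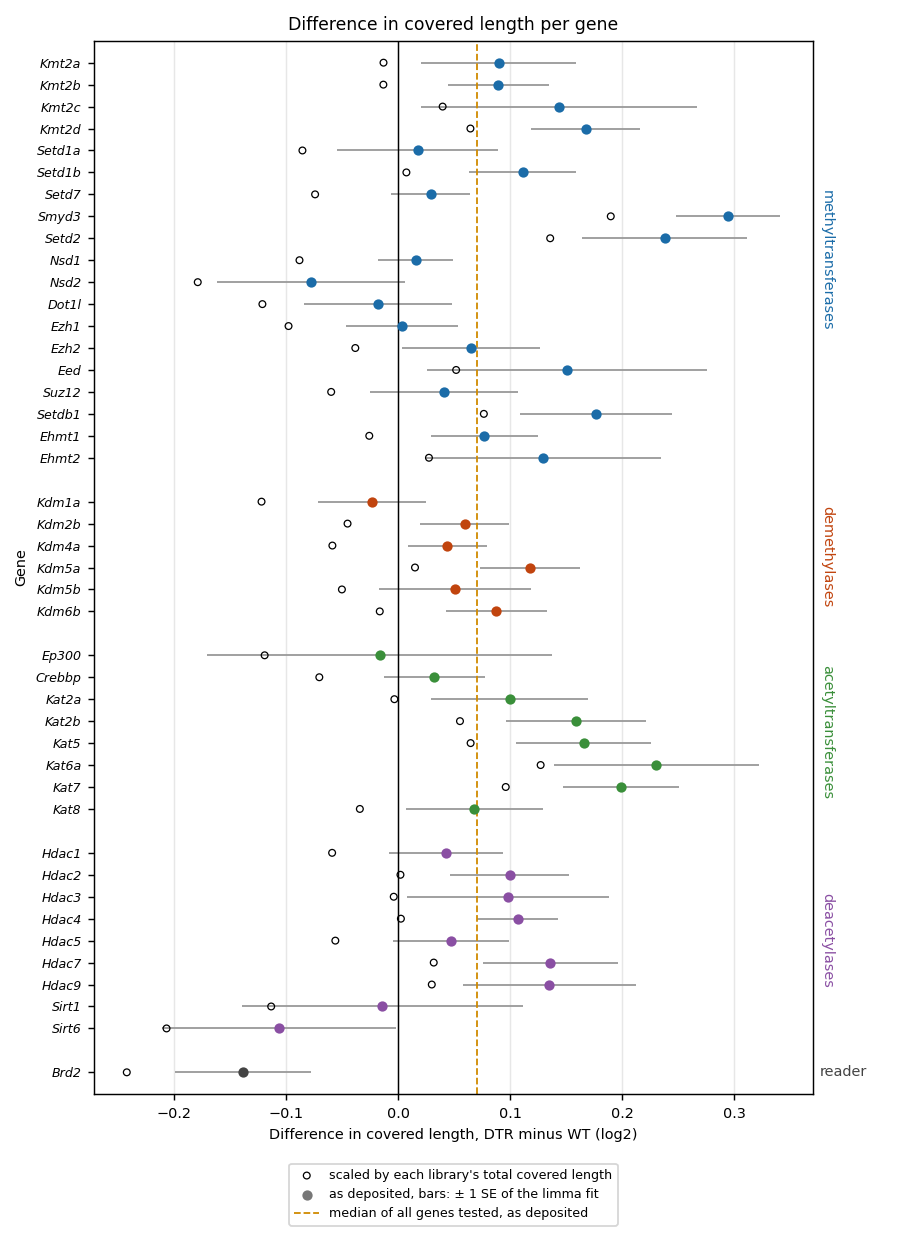
Difference in covered length between groups (x axis, log2, DTR minus WT) for each member, as deposited (filled points with ± 1 SE of the limma fit) and after scaling by each library's total covered length (open circles), with the median of all genes tested as deposited at the dashed line. Smyd3 stands highest at 0.29 and Brd2 lowest at −0.14, and none passed the test. Scaling moves 36 positive differences to 17.

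Single regions gave a few differences in presence. Regions called in all 3 DTR libraries and in none of the WT libraries numbered 3 of 377, or 0.796%, against 0.82% of all regions, and those called in none of the DTR but all 3 WT libraries numbered 1, or 0.265%, against 0.0992%. By gene this was 2 of 43 members with a DTR-only region, or 4.65%, against 3.25% of genes with any region, and 1 with a WT-only region, or 2.33%, against 0.493%. Smyd3 held 2 of the DTR-only regions. The first, chr1:179060604-179061542 in the gene body, covered 939, 430 and 447 bp with folds of 3.05, 3.42 and 3.14 in DTR 1, 2 and 3. The second, chr1:179142301-179142450, covered 147, 142 and 147 bp with folds of 5.52, 4.45 and 5.49. The third region lay in the Kdm5a gene body at chr6:120439188-120439671, with 290, 441 and 165 bp and folds of 3.63, 3.24 and 3.92. The WT-only region was at Hdac7, chr15:97842821-97842974, with 145, 154 and 139 bp and folds of 2.90, 3.09 and 2.98 in WT 1, 2 and 3. It lay 1528 bp from the nearest annotated start. The promoter of that start, chr15:97844453-97844752, had a peak over it in 0 libraries and is not the Hdac7 promoter printed above. All 4 regions had low to middling folds, and lists alone cannot show whether reads fell just short of a call in the other group. With 1 library left out, DTR-only regions numbered 7 without WT 2, 6 without WT 3 and 5 without DTR 2, and WT-only regions 3 without WT 2 and 2 without WT 1 or WT 3. Leaving out a library can only keep or raise such counts. The shares of all regions in these settings are not given here, so the counts cannot be set beside the genome.

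Smyd3, the member with the largest difference in covered length, was taken apart by region. A lean of its regions towards DTR follows from that choice, and the counts below only show where the difference lies. Of its 32 regions 22 were in all 6 libraries. Of the other 10, 9 had a peak in more DTR than WT libraries and 0 in more WT than DTR libraries. Of these 10, 4 had a peak in 1 library alone. Among the 22, 17 were wider and 5 narrower on average in DTR libraries, with a median difference of 0.084 (log2), and at 4 the DTR widths lay above the WT widths without overlap. The share of such regions among all regions of 6 libraries is not given here. Summed over its whole regions, Smyd3 covered 2693 bp more in DTR than in WT libraries on average, of which 1431 bp lay in regions of all 6 libraries and 751 bp in the DTR-only regions. Among the regions of all 6 libraries the largest difference in bp was at chr1:179360688-179362126, with 1286, 1381 and 1431 bp in DTR libraries, and 1375, 669 and 607 bp in WT libraries. WT 1 was as wide as the DTR libraries there. The strongest region of the gene, chr1:178991549-178991894, had folds of 10.2, 12.5 and 12.2 in DTR libraries, and 11.8, 12.4 and 11.6 in WT libraries.

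**Figure D5:**
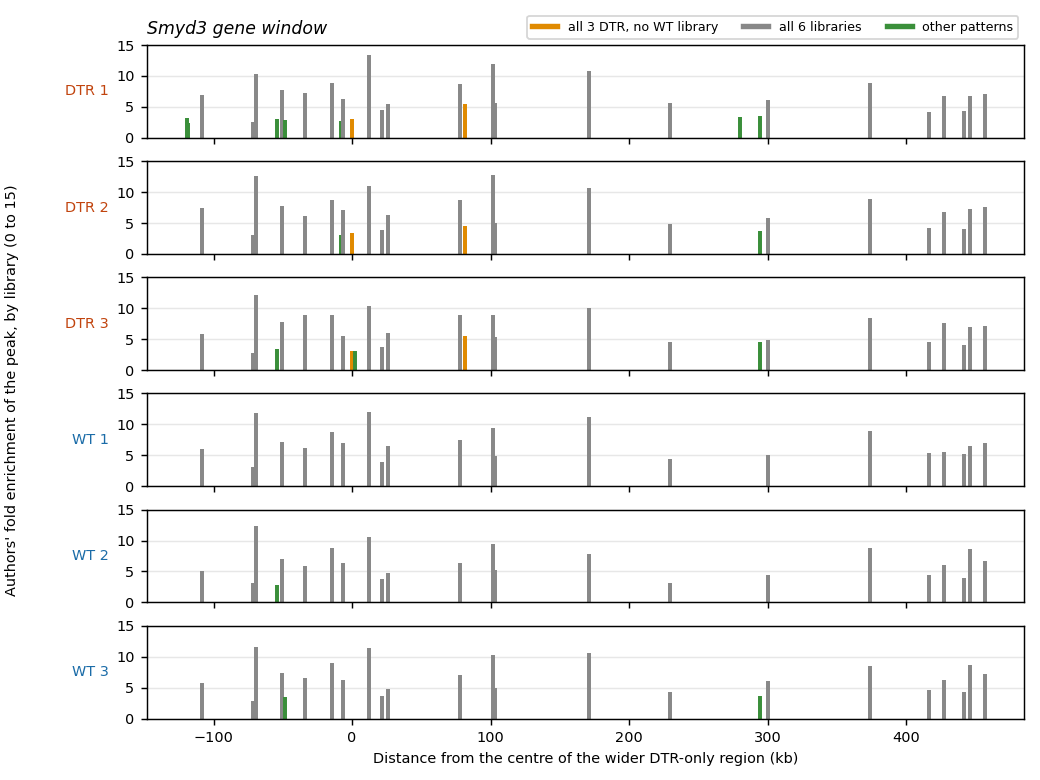
Peaks of the Smyd3 window in each library, the 3 DTR libraries on top and the 3 WT libraries below, by distance from the centre of the wider DTR-only region (x axis, kb) and the authors' fold enrichment (y axis, 0 to 15). Grey regions occur in all 6 libraries, and the 2 orange regions in the 3 DTR libraries only.

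The widths of the 289 regions common to all libraries were tested with limma across 68712 such regions of the genome. None of the members' 289 passed, at a lowest adjusted p of 0.159, against 158 regions or 0.23% of all. At an unadjusted p under 0.05, 17 were wider and 2 narrower in DTR libraries, together 6.57%, against 7.42% of all regions. After scaling 6 were wider and 23 narrower, or 2.08% and 7.96%, against 2.47% and 6.83% of all regions. Without WT 1, 37 were wider and 1 narrower, or 12.6% and 0.341%, against 8.50% and 0.908%. Without WT 2, 10 were wider and 5 narrower, or 3.41% and 1.71%, against 4.63% and 1.47%. The median difference was 0.046, against 0.044 over all. The region with the lowest p was inside Hdac9 at chr12:34211583-34212591, with 786, 728 and 865 bp in DTR libraries, and 499, 547 and 570 bp in WT libraries (0.56 ± 0.085). The groups did not overlap there. A narrower region of Hdac9, at chr12:34486054-34486466, ran the other way, with 175, 144 and 204 bp in DTR libraries, and 374, 266 and 306 bp in WT libraries (−0.86 ± 0.18, adjusted p = 0.357). At Hdac4, chr1:92011833-92012021 had 182, 184 and 185 bp in DTR libraries, and 147, 152 and 138 bp in WT libraries (0.34 ± 0.054, adjusted p = 0.180). The start region of Kat7, chr11:95309524-95310752, had 1207, 1197 and 1229 bp in DTR libraries, and 1140, 1149 and 1146 bp in WT libraries (0.081 ± 0.019, adjusted p = 0.418). Hdac9, Hdac4 and Kat7 regions were named here after their values were seen.

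Left-out libraries changed this count. The share of all regions that passed in the same settings is not given here, so these counts cannot be set beside that of the genome. Without WT 1, 2 regions passed, the Smyd3 region at chr1:179360688-179362126 (1.10, adjusted p = 0.0157) and a Suz12 region at chr11:79992514-79993831 (0.19, adjusted p = 0.0411), which had 1317, 1308 and 1315 bp in DTR libraries, and 1316, 1154 and 1155 bp in WT libraries. Without WT 2, 1 region of Setd1b passed, chr5:123135620-123136666 (1.75, adjusted p = 0.0100), with 1027, 1047 and 1014 bp in DTR libraries, and 294, 1009 and 320 bp in WT libraries. In each of these 3 regions the WT library left out was close to the DTR widths.

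The wider set of chromatin genes was fitted in the same test. Of 124 other genes, for further methyltransferases, demethylases, acetyltransferases, deacetylases, readers and partner subunits, 0 passed the limma test of covered length, at a lowest adjusted p of 0.129. At an unadjusted p under 0.05, 13 were higher in DTR libraries, or 10.5%, against 12.4% of all genes, and 0 lower, against 0.38%. The groups did not overlap at 28 genes with DTR above WT, or 22.6%, against 19.6% of all genes, and at 0 with DTR below, against 0.852%. Their median difference was 0.073, as deposited, beside 0.088 over the 43 members. By list, 6 of 22 methyltransferases, 4 of 15 demethylases, 0 of 11 acetyltransferases, 1 of 9 deacetylases, 0 of 25 readers and 2 of 42 partner subunits were higher at that unadjusted level. As shares these were 27.3%, 26.7%, 0%, 11.1%, 0% and 4.76%, beside 12.4% of all genes, and the lists were not compared by a test. DTR-only regions were found at Kdm4c, a demethylase of H3K9, at Kat6b, the paralog of Kat6a, and at Aebp2, a partner subunit of the H3K27 methyltransferase. A WT-only region was found at Ing1, a reader of methylated H3K4. These were 3 DTR-only regions and 1 WT-only region of 733 at the 124 genes, beside 0.82% and 0.0992% of all regions. Start peaks in all 6 libraries were found at 98 of 100 of these genes with an annotated start.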

How the data were processed

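ATAC-seq libraries of blood monocytes, 3 DTR and 3 WT, were each deposited as a list of broad peaks of that library. Groups and replicate numbers come from the sample titles. The submitters' processing notes name fastp, Bowtie, Bowtie2 in version 2.4.4 and MACS2. Their settings, the genome build and any correction for the transposase offset were not given in the sources used here. Besides positions, the deposited columns hold the authors' score, their fold enrichment (a ratio) and the −log10 p-value and −log10 q-value of each peak. Broad peak calls join nearby enriched stretches, so covered length moves with depth and with how calls are joined, and neither can be corrected without reads.

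Gene bodies came from a RefSeq table of GRCm38 and starts and promoters from RefSeq sequences of GRCm38.p6. The fit of that build was checked: 54.9% of 17491 starts had a peak within 100 bp in all 6 libraries (37.8% to 64.9% over 19 chromosomes), against 3.28% and 3.77% after moving the starts by 5 and 20 kb. Promoter entries matched 33 of 43 members by symbol. Peak positions are counted from 1.

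Covered length per window and width per merged region were compared with limma (version 3.58.1, R 4.3.3; eBayes with trend) on log2 values with a pseudocount of 100 bp for windows and none for regions, over all genes averaging at least 200 bp or all regions of 6 libraries. P-values are two-sided with Benjamini-Hochberg adjustment and a threshold of 0.05. The fit was tested on simulated data. Tables were handled in Python 3.11.15 with pandas 2.3.3 and NumPy 2.4.6, and figures drawn with matplotlib 3.10.9. Alternatives changed the peaks used (−log10 q of at least 5), list length, pseudocount, filter, scaling, window, merging, libraries and block.

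Values per library are given for members with a group-only region, for the 2 members of each class with the largest absolute difference and for Brd2. Start peaks are named for the 3 highest and 3 lowest ranks and for members without one. Other genes and regions with values were named after those were seen. The members, the lists and these rules were chosen with earlier results of these data known. Replicate numbers were not treated as pairs in the main fit, and the labels give no batch. Deviations of same-numbered libraries correlated at −0.016 to 0.099 over genes, and those of different numbers at −0.088 to 0.065. Taken from means of 3 libraries, these correlations cannot show whether same-numbered libraries shared a batch. One erythroid marker, Ahsp, matched no gene.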

Additional observations from a re-analysis of the deposited data

How the results depend on the processing

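Across the planned settings 0 members passed the covered length test, the replicate block included, and the width test gave 0 regions with the block and in every other setting except when a library was left out (0 to 2 regions). For all genes the count called was 6, against 0 with the block, with lists of equal length and with a pseudocount of 10 bp, 2 after scaling, 19 at a −log10 q of at least 5, 35 for the gene body alone, 31 with no filter, and 0 to 21 with a library left out (21 without WT 1); the block gave 0 of 68712 regions, against 158. At an unadjusted p under 0.05 the members counted in either direction were 10, against 5 with the block and 3 to 9 with a library left out, and the regions 19, against 22 and 15 to 38. DTR-only regions at members numbered 7 when 2 of 3 libraries sufficed, 1 at the stricter q and 4 to 7 with a library left out. WT-only regions numbered 5, 0 and 1 to 3 in the same settings. Asking for fewer libraries, or leaving one out, can only keep or raise such counts. The shares of all regions in these settings are not given here. The median difference of members was 0.048 with lists of equal length, −0.016 after scaling and 0.051 to 0.099 with a library left out, lowest without WT 2. The counts without overlap, added after the data were seen, were 2 above and 4 below after scaling, against 5.02% and 15.1% of all genes. For the gene body they were 9 and 0, against 16.4% and 1.08%. With lists of equal length 11 members were above and 0 below, against 15.9% and 1.74% of all genes. At the stricter q 10 were above and 0 below, against 20.4% and 0.72%. With a library left out the counts were 15 to 21 above and 1 to 2 below. The shares of all genes were then 22.5% to 40.6% and 1.40% to 3.68%. Fewer libraries overlap less by construction. Setd2 turned to −0.0069 in the gene body alone and Kdm6b to −0.016 after scaling. Scaling shifts all genes by construction; for the other settings the cause was not tested. Read depth is unknown, so small or narrow regions missing from a library are the least firm values.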
